A study of Arabidopsis thaliana with 9 samples.

Results

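The chloroplast genome of Arabidopsis thaliana encodes its own set of transfer RNAs, and reads over 37 chloroplast-encoded tRNA genes are described here out of 37336 genes in the deposited table. The genes were taken by locus identifier from a fixed list whose rule uses no measured values. Earlier results of these data were known when the members were chosen. The sequenced RNA was the 17 to 30 nt fraction of total plant RNA from Col-0 (LUC), the control, prors1 (LUC) and rls6, with 3 libraries of each genotype. The prors1 mutation affects the organellar prolyl-tRNA synthetase. The labels do not say what LUC marks, whether rls6 carries it too, or which change rls6 carries, and the source label names the mutants rbp-ko-1 and rbp-ko-2 in place of prors1 and rls6. Growth was on soil in long days, with 16 h of light and 8 h of dark, and 1 label gives an age of 25 days and another 26 days. The question in the design text is how small RNAs in each mutant compare with those in Col-0 (LUC). No label says that the libraries are of different plants, and the p-values therefore measure only how far libraries spread, which may be technical.

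A tRNA carries an amino acid to the ribosome and reads a codon with its anticodon. Chloroplast tRNAs are transcribed as precursors, trimmed at both ends and charged by aminoacyl-tRNA synthetases that are encoded in the nucleus and imported. The chloroplast ribosome needs them to make the photosynthetic proteins that the plastid genome encodes. Some plastid tRNA genes lie in the inverted repeat and occur as a pair of identical copies. The chloroplast tRNA genes of the reference are 71 to 92 bases long without introns. Reads of 17 to 30 nt are therefore too short to be an intact tRNA and do not measure it. How strand and reads with several mapping places were treated is not given. Reads from the opposite strand or from shared nuclear or mitochondrial sequence therefore cannot be told apart from pieces of the chloroplast tRNA. In bulk RNA, fewer chloroplasts or cells and less RNA per chloroplast or cell cannot be told apart.

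The rule names 3 of the 37 genes: ATCG00620 as trnP, ATCG00320 as trnfM and ATCG00090 as trnS-GCU. Their sequences are shown because trnP encodes the substrate of the enzyme affected in prors1, trnfM had one of the largest differences between genotypes, and trnS-GCU held the largest share of the reads. They give the DNA strand that reads as the tRNA, from RefSeq's TAIR10.1 assembly, 5′ to 3′, with the anticodon at bases 35 to 37 in capitals.
trnP: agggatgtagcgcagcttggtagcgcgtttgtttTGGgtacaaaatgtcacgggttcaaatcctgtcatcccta
trnfM: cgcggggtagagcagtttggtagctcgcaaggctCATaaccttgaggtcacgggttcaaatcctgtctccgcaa
trnS-GCU: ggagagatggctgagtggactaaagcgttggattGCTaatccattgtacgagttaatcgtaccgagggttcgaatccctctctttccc
The trnP gene lies at 66490 to 66563 of the chloroplast genome on the minus strand, 188 bases from trnW. The trnfM gene lies at 36704 to 36777 on the minus strand, 144 bases from trnG. The trnS-GCU gene lies at 7785 to 7872, 92 bases from psbI. The annotation puts it on the plus strand, but the GCT anticodon stands in the loop only on the minus strand, which is printed. Each is a single exon of a tRNA gene that overlaps no other annotated gene. Of all 21-base windows, 98.1% of those in trnP and in trnfM and 88.2% of those in trnS-GCU occur once in the whole TAIR10.1 genome, and 11.8% of the trnS-GCU windows also occur in nuclear and 11.8% in mitochondrial sequence. The initiator tRNA trnfM begins chloroplast protein synthesis, trnP inserts proline and trnS-GCU inserts serine. The other 34 loci are named by identifier, since no table used here pairs those identifiers with tRNA names.

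The libraries held 611238 to 702303 reads over genes. The 37 tRNA genes took 4006 to 8345 of them, or 0.653% to 1.23% of a library, 57691 reads in all. All chloroplast-encoded genes together took 2.43% to 2.50% of the reads of a Col-0 (LUC) library, 3.45% to 4.25% of a prors1 (LUC) library and 4.49% to 4.59% of an rls6 library, with prors1 (LUC) replicate 2 lowest among the mutant libraries. Small RNA reads over AT5G52520, the prolyl-tRNA synthetase gene also called OVA6, numbered 0, 1 and 0 in the control, 8, 5 and 3 in prors1 (LUC) libraries and 7, 7 and 7 in those of rls6, too few to be tested, and they do not check the mutation.

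The reads were spread very unevenly over the 37 genes. ATCG00090 (trnS-GCU) took 52.7% of the tRNA gene reads, ATCG00290 22.8%, ATCG00100 8.24% and ATCG00320 (trnfM) 4.44%, and these 4 loci held 88.2% of the reads together. Read numbers of different genes may also depend on gene length, and lengths are known here for the 3 named genes. In Col-0 (LUC) the mean level was 25.5 normalized reads per base of trnS-GCU, 1.29 per base of trnfM and 0.235 per base of trnP. That order was the same in prors1 (LUC), at 41.7, 4.57 and 0.643, and in rls6, at 42.7, 5.30 and 0.874. A normalized read is a read divided by the authors' size factor for its library.

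Of the 37 genes, 25 passed the filter of 10 normalized reads in 3 or more libraries and were tested, and 12 did not. The 12 held 82 reads, 0.142% of the tRNA gene reads. ATCG00850 and ATCG01220 had 0 reads in all 9 libraries, where a count of 0 allows up to 3 reads, and 8 other genes had 1 to 8 reads over the 9 libraries. ATCG01140 and ATCG01260 had 26 and 22 reads. The filter was passed by 5 genes that had no Col-0 (LUC) library at 10, and by 9, these 5 included, with fewer than 3 such libraries. These 9 genes are ATCG00010, ATCG00030, ATCG00230, ATCG00390, ATCG00460, ATCG00930, ATCG00940, ATCG00980 and ATCG01290. They could pass only through reads in the mutants, so counts over the 25 genes describe the tested genes and not all 37.

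The 15 loci from ATCG00850 to ATCG01290, which include inverted-repeat copies, held 937 reads, 1.62% of the tRNA gene reads. Of them, 5 were tested, ATCG00930, ATCG00940, ATCG00980, ATCG01030 and ATCG01290, with 92.2% of the 937 reads, and 8 had fewer than 10 reads. In the reference, 14 of the 37 chloroplast tRNA genes form 7 pairs with identical sequence, and 10 of the 23 single-copy genes have every 21-base window once in the genome. Windows shared with nuclear sequence occur in 16 of the 37 and with mitochondrial sequence in 11. How reads with several mapping places were counted is not given in the sources used here, so values of the repeated loci are uncertain.

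**Figure D1:**
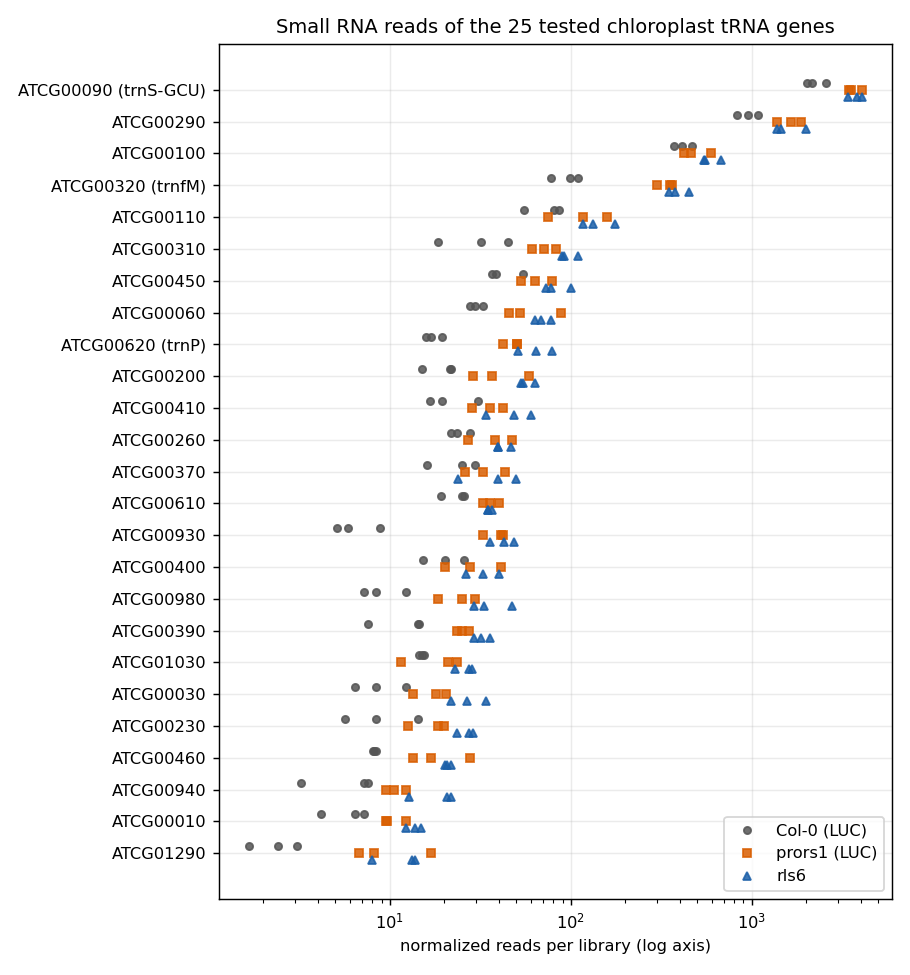
Normalized reads (log axis) of the 25 tested chloroplast tRNA genes, ordered by their mean over 9 libraries, with 1 point per library and 3 libraries per genotype. The values span from under 2 reads (ATCG01290 in Col-0 (LUC)) to 4056 (trnS-GCU in rls6), and the Col-0 (LUC) points lie to the left of the rls6 points in 24 of the 25 genes.

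Small RNA reads of the chloroplast tRNA genes rose in prors1 (LUC): 15 of the 25 tested genes were higher than in Col-0 (LUC), the initiator tRNA gene trnfM and the proline tRNA gene trnP among them, and 0 were lower. Of the 25, 9 passed the filter only through reads in the mutants, which favours higher over lower calls at these genes. Of these 9, ATCG00030, ATCG00390, ATCG00460, ATCG00930, ATCG00980 and ATCG01290 are among the 15. The median and the groups that did not overlap also include the 9. Over all tested genes 7.74% were higher and 6.63% lower, 369 and 316 genes, a split that became 211 and 454 in CPM, the reads scaled to the library total. Log2 fold changes are on the log2(normalized reads + 1) scale, which understates changes of genes with few reads, and adjusted p-values are from limma over 4766 genes with the Benjamini-Hochberg method. Without the adjustment 21 were higher at a p under 0.05 and 0 lower, against 13.6% and 12.1% of all tested genes, and edgeR and DESeq2 also gave 0 lower. The 10 that did not pass had log2 fold changes above 0 too. The median log2 fold change of the 25 genes was 0.82, against 0.01 over all 4766 genes. The groups did not overlap at 16 of the 25 genes, all with prors1 (LUC) above, compared with 14.3% of all tested genes. Other chloroplast-encoded genes had a similar median of 0.81, with 61 of 81 tested higher and 2 lower and with no test of the difference between the lists. In the authors' deposited table, whose header names no groups but whose values follow prors1 (LUC) over Col-0 (LUC), 12 of the 27 tRNA genes with an adjusted p were higher and 0 lower, against 3.24% higher and 2.67% lower of its 7375 genes with an adjusted p.

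In rls6, 23 of the 25 were higher than in Col-0 (LUC), the same 15 included, and 0 lower by limma, edgeR or DESeq2. All 9 genes that passed the filter only through reads in the mutants are among the 23. This favours higher calls, a higher median and groups that do not overlap. At an unadjusted p under 0.05 all 25 were higher, against 17.0% of all tested genes higher and 11.5% lower. Over all tested genes 12.7% were higher and 4.95% lower. Those 605 and 236 genes became 525 and 434 with upper-quartile scaling and 461 and 414 in CPM. The median log2 fold change was 1.19, against -0.02 over all genes and 1.12 over the other chloroplast genes, of which 74 of 81 were higher and 3 lower. The groups did not overlap at 24 of the 25 genes, against 18.2% of all tested genes. All comparisons with Col-0 (LUC) use the same control libraries: 15 genes passed in both mutants, 8 in rls6 alone and 2 in neither.

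**Figure D2:**
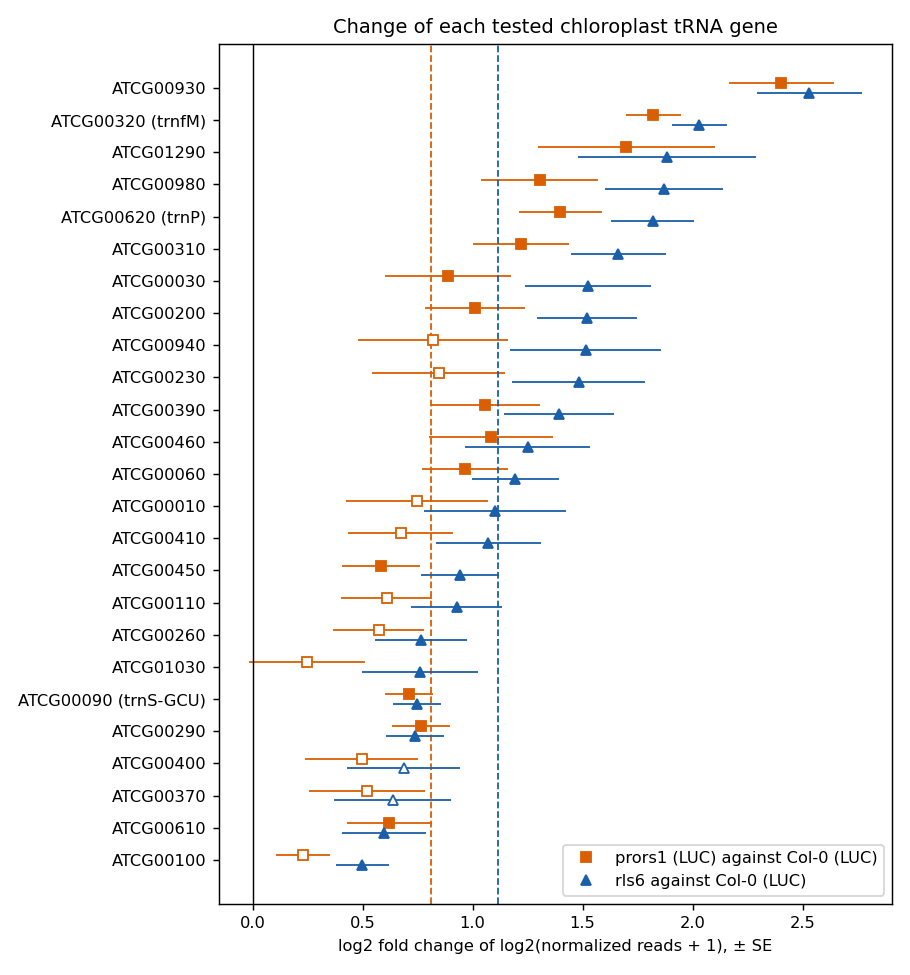
Log2 fold change against Col-0 (LUC) on the log2(normalized reads + 1) scale, with SE bars, of the 25 tested chloroplast tRNA genes in prors1 (LUC) (squares) and rls6 (triangles), ordered by rls6. Filled symbols passed an adjusted p of 0.05, open ones did not, and dashed lines mark the medians of the other chloroplast genes (0.81 in prors1 (LUC), 1.12 in rls6); all points lie above 0, from 0.23 to 2.53.

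The cognate tRNA of the affected synthetase, trnP, gave 15.9, 16.9 and 19.5 normalized reads in the Col-0 (LUC) libraries, 50.5, 50.1 and 42.1 in those of prors1 (LUC) and 78.8, 50.9 and 64.4 in those of rls6. Every library of both mutants lay above every Col-0 (LUC) library, and the lowest rls6 library lay just above the highest of prors1 (LUC). The mean rose from 17.4 ± 1.85 (SD, n = 3) in Col-0 (LUC) to 47.6 ± 4.77 in prors1 (LUC), 2.73 times as high, and the fitted log2 change was 1.40 ± 0.19 (SE), at an adjusted p of 1.14e-05. In rls6 it rose to 64.7 ± 13.9, 3.72 times as high, or 1.82 ± 0.19 on the log2 scale (adjusted p = 9.05e-08). Between the mutants, trnP was 0.42 ± 0.19 higher on the log2 scale in rls6 (95% interval 0.03 to 0.81), which did not pass (adjusted p = 0.145). The authors' deposited table lists trnP at a log2 fold change of 1.28 with a standard error of 0.250 and an adjusted p of 1.88e-05.

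The initiator tRNA trnfM gave 109.5, 77.9 and 99.4 normalized reads in the Col-0 (LUC) libraries, 362, 301 and 353 in those of prors1 (LUC) and 378, 349 and 449 in those of rls6. Both mutants lay far above Col-0 (LUC) with no overlap, and prors1 (LUC) and rls6 overlapped each other. The mean rose 3.54-fold in prors1 (LUC), fitted at 1.82 ± 0.13 on the log2 scale (adjusted p = 4.18e-10), and 4.10-fold in rls6, with 2.03 ± 0.13 (adjusted p = 2.13e-11). The difference between the mutants was 0.21 ± 0.13 on the log2 scale (95% interval -0.05 to 0.47; adjusted p = 0.292).

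The gene with most reads, trnS-GCU, gave 2011, 2561 and 2161 normalized reads in the Col-0 (LUC) libraries, 4043, 3445 and 3518 in those of prors1 (LUC) and 3414, 4056 and 3795 in those of rls6. The mutants were above Col-0 (LUC) in every library, with smaller ratios than at trnP or trnfM. In prors1 (LUC) it rose by 0.71 ± 0.11 on the log2 scale, with a ratio of 1.63 (adjusted p = 5.97e-05), and in rls6 by 0.75 ± 0.11, a ratio of 1.67 (adjusted p = 1.46e-05). For rls6 against prors1 (LUC) it was 0.03 ± 0.11 (95% interval -0.19 to 0.26; adjusted p = 0.876), and its sign changed with upper-quartile scaling (-0.04) and without prors1 (LUC) replicate 2 (-0.01) or rls6 replicate 2 (-0.02).

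**Figure D3:**
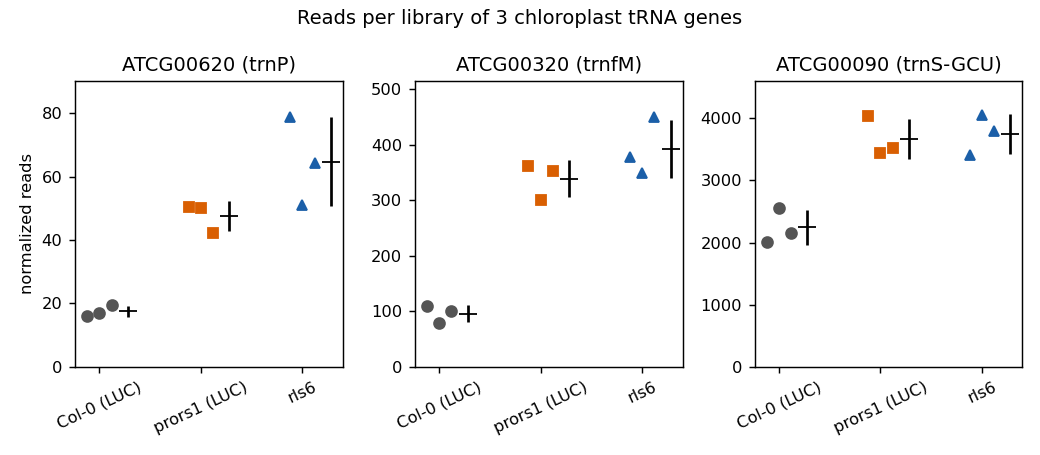
Normalized reads per library (linear axes from 0) of trnP, trnfM and trnS-GCU in the 3 genotypes, with points for libraries in the order of their replicate numbers and a black bar for the mean ± SD (n = 3). In each panel all Col-0 (LUC) points lie below all mutant points: trnP has 15.9 to 19.5 reads in Col-0 (LUC) and 42.1 to 78.8 in the mutants.

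Among the other loci with many reads, ATCG00290 had 834, 1078 and 957 normalized reads in the Col-0 (LUC) libraries, 1860.4, 1379 and 1648 in those of prors1 (LUC) and 1379.7, 2001 and 1448 in those of rls6. ATCG00100 had 470.0, 372 and 411 normalized reads in the Col-0 (LUC) libraries, 595, 422 and 462 in those of prors1 (LUC) and 677, 552 and 544 in those of rls6. ATCG00110 had 55.2, 81.1 and 86.1 normalized reads in the Col-0 (LUC) libraries, 158, 75.2 and 117 in those of prors1 (LUC) and 116, 133 and 175 in those of rls6. The mutants did not overlap Col-0 (LUC) at ATCG00290, while prors1 (LUC) overlapped it at ATCG00100 and ATCG00110 and rls6 did not. ATCG00290 rose by 0.77 ± 0.13 (log2) in prors1 (LUC) (adjusted p = 2.20e-04) and 0.74 ± 0.13 in rls6 (adjusted p = 1.72e-04). ATCG00100 was at 0.23 ± 0.12 in prors1 (LUC), which did not pass (adjusted p = 0.248), and rose by 0.50 ± 0.12 in rls6 (adjusted p = 0.0044). ATCG00110 was at 0.61 ± 0.21 in prors1 (LUC), just above the threshold (adjusted p = 0.0506), and rose by 0.93 ± 0.21 in rls6 (adjusted p = 0.00197). Whether either locus differed between the mutants was tested and did not pass (adjusted p = 0.142 and 0.33).

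The fitted change was larger than at those 3 loci at ATCG00930, ATCG01290 and ATCG00980, with means of 8.20 to 29.2 normalized reads over the 9 libraries. All of these lie in the range from ATCG00850 to ATCG01290, which includes inverted-repeat copies. Their values may depend on how reads with several mapping places were counted, which is not given. ATCG00930 had 5.85, 8.84 and 5.12 normalized reads in the Col-0 (LUC) libraries, 41.0, 32.8 and 42.1 in those of prors1 (LUC) and 48.6, 35.8 and 42.6 in those of rls6. Its mean rose 5.85-fold in prors1 (LUC) and 6.41-fold in rls6, the largest ratios of the 25 tested genes. On the log2 scale these were 2.40 ± 0.24 and 2.53 ± 0.24 (adjusted p = 1.25e-07 and 1.89e-08). ATCG01290 had 1.67, 2.41 and 3.07 normalized reads in the Col-0 (LUC) libraries, 16.8, 6.75 and 8.21 in those of prors1 (LUC) and 13.7, 13.2 and 7.93 in those of rls6. ATCG00980 had 8.36, 7.23 and 12.3 normalized reads in the Col-0 (LUC) libraries, 29.5, 25.1 and 18.5 in those of prors1 (LUC) and 29.3, 33.0 and 47.6 in those of rls6. Every mutant library exceeded every Col-0 (LUC) library at these 3 loci, and none of them had 3 Col-0 (LUC) libraries at 10 reads. ATCG01290 rose by 1.70 ± 0.40 in prors1 (LUC) (adjusted p = 0.00549) and 1.88 ± 0.40 in rls6 (adjusted p = 0.0014) on the log2 scale. For ATCG00980 the values were 1.30 ± 0.27 (adjusted p = 0.00146) and 1.87 ± 0.27 (adjusted p = 1.06e-05).

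Another 5 loci, with means of 16.1 to 66.9 normalized reads over the 9 libraries, rose in both mutants. ATCG00310 had 45.2, 18.5 and 31.8 normalized reads in the Col-0 (LUC) libraries, 83.1, 60.7 and 70.8 in those of prors1 (LUC) and 109.9, 89.5 and 92.2 in those of rls6. ATCG00200 had 15.1, 21.7 and 21.5 normalized reads in the Col-0 (LUC) libraries, 58.9, 36.6 and 28.7 in those of prors1 (LUC) and 53.1, 54.7 and 63.4 in those of rls6. ATCG00060 had 32.6, 29.7 and 27.7 normalized reads in the Col-0 (LUC) libraries, 88.4, 45.3 and 52.3 in those of prors1 (LUC) and 77.9, 68.8 and 63.4 in those of rls6. None of these loci had a mutant library below a Col-0 (LUC) library. Their log2 fold changes were 1.22 ± 0.22, 1.01 ± 0.23 and 0.97 ± 0.20 in prors1 (LUC), in that order (adjusted p = 3.58e-04, 0.00346 and 0.00141). In rls6 they were 1.66 ± 0.22, 1.52 ± 0.23 and 1.19 ± 0.20 (adjusted p = 3.03e-06, 1.91e-05 and 7.14e-05). ATCG00390 had 7.53, 14.5 and 14.3 normalized reads in the Col-0 (LUC) libraries, 27.4, 25.1 and 23.6 in those of prors1 (LUC) and 32.1, 29.2 and 35.7 in those of rls6. ATCG00460 had 8.36, 8.03 and 8.20 normalized reads in the Col-0 (LUC) libraries, 16.8, 13.5 and 27.7 in those of prors1 (LUC) and 20.2, 21.7 and 20.8 in those of rls6. Both were again above Col-0 (LUC) in all 6 mutant libraries, but both passed the filter only through reads in the mutants. ATCG00390 rose by 1.06 ± 0.25 in prors1 (LUC) and 1.39 ± 0.25 in rls6 (adjusted p = 0.00549 and 2.17e-04), and ATCG00460 by 1.08 ± 0.28 and 1.25 ± 0.28 (adjusted p = 0.0113 and 0.00234).

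Calls nearer the threshold in at least 1 comparison lay at 5 further loci. ATCG00030 had 8.36, 6.43 and 12.3 normalized reads in the Col-0 (LUC) libraries, 17.9, 13.5 and 20.5 in those of prors1 (LUC) and 33.9, 21.7 and 26.8 in those of rls6. It passed the filter only through reads in the mutants. ATCG00450 had 36.8, 38.6 and 54.3 normalized reads in the Col-0 (LUC) libraries, 78.9, 53.0 and 63.6 in those of prors1 (LUC) and 73.3, 77.3 and 100.1 in those of rls6. ATCG00610 had 19.2, 24.9 and 25.6 normalized reads in the Col-0 (LUC) libraries, 35.8, 32.8 and 40.0 in those of prors1 (LUC) and 34.8, 34.9 and 36.7 in those of rls6. Neither mutant overlapped Col-0 (LUC) at ATCG00030 and ATCG00610, while the mutants overlapped each other at ATCG00610, and at ATCG00450 prors1 (LUC) replicate 2 lay below the highest Col-0 (LUC) library. In prors1 (LUC) their log2 fold changes were 0.89 ± 0.29, 0.58 ± 0.18 and 0.62 ± 0.19 (adjusted p = 0.0396, 0.0304 and 0.0323), and in rls6 1.52 ± 0.29, 0.94 ± 0.18 and 0.60 ± 0.19 (adjusted p = 3.43e-04, 3.79e-04 and 0.0323). ATCG00260 had 23.4, 21.7 and 27.7 normalized reads in the Col-0 (LUC) libraries, 37.9, 27.0 and 47.2 in those of prors1 (LUC) and 39.4, 39.6 and 46.6 in those of rls6. ATCG01030 had 15.1, 14.5 and 15.4 normalized reads in the Col-0 (LUC) libraries, 21.05, 11.6 and 23.6 in those of prors1 (LUC) and 28.4, 27.3 and 22.8 in those of rls6. In prors1 (LUC) a library of each locus fell within or below the Col-0 (LUC) values, and in rls6 none did. Both loci rose in rls6 against Col-0 (LUC), by 0.77 ± 0.21 and 0.76 ± 0.26 (adjusted p = 0.0106 and 0.048). In prors1 (LUC) they were at 0.57 ± 0.21 and 0.25 ± 0.26 and did not pass (adjusted p = 0.0679 and 0.624), and the difference between the mutants did not pass (adjusted p = 0.601 and 0.203).

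The remaining 6 tested genes were ATCG00010, ATCG00230, ATCG00370, ATCG00400, ATCG00410 and ATCG00940, and none passed in prors1 (LUC). Their log2 fold changes there ran from 0.50 at ATCG00400 to 0.85 at ATCG00230. In rls6, ATCG00010, ATCG00230, ATCG00410 and ATCG00940 rose, by 1.07 at ATCG00410 to 1.51 at ATCG00940. Of these, ATCG00010, ATCG00230 and ATCG00940 passed the filter only through reads in the mutants. ATCG00370 and ATCG00400 did not pass in rls6, at 0.64 ± 0.26 and 0.69 ± 0.26 (adjusted p = 0.108 and 0.0695). ATCG00370 was the tested gene whose rls6 libraries overlapped Col-0 (LUC), with rls6 replicate 1 at 23.8 reads and Col-0 (LUC) replicate 3 at 29.7.

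Between the mutants, rls6 against prors1 (LUC) gave 0 tRNA genes past the threshold by limma, edgeR and DESeq2, while 6 were higher and 0 lower at an unadjusted p under 0.05 in limma, against 16.5% higher and 12.2% lower over all tested genes. Over all tested genes 11.7% were higher and 5.16% lower in rls6, 556 and 246 genes, against 482 and 401 with upper-quartile scaling. The log2 fold change was above 0 at 23 of the 25 genes, with a median of 0.32, against -0.02 over all genes and 0.30 over the other chloroplast genes, of which 14 of 81 passed as higher. The groups did not overlap at 6 of the 25, all with rls6 above, against 18.2% of all tested genes. At ATCG00940, which had the largest fitted difference of the 25, 0.69 ± 0.34, the 95% interval before any adjustment ran from -0.02 to 1.41 (adjusted p = 0.185). Without prors1 (LUC) replicate 1, ATCG00200 and ATCG00100 passed as higher in rls6 (adjusted p = 0.0196 and 0.0218).

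Several single calls changed when 1 library was left out. For prors1 (LUC) against the control, leaving out Col-0 (LUC) replicate 1 put the adjusted p of ATCG00030 at 0.0989, that of ATCG00450 at 0.14 and that of ATCG00610 at 0.142. Leaving out the second control library gave 0.13 for ATCG00030 and 0.0806 for ATCG00450. With prors1 (LUC) replicate 1 removed, the values were 0.1, 0.166 and 0.0721 for ATCG00030, ATCG00450 and ATCG00610, and with prors1 (LUC) replicate 3 removed, 0.145, 0.0734 and 0.116. ATCG00030 also stood at 0.0501 without rls6 replicate 1 and 0.056 without rls6 replicate 3. ATCG00460 was at 0.0895 without prors1 (LUC) replicate 3. These 4 were the prors1 (LUC) calls that some alternative ended, and 10 of the 15, trnP, trnfM and trnS-GCU among them, held in all 22. The call of ATCG01290 held in the 17 alternatives that tested it; it fell below the filter with a minimum of 20 reads, in the fit of the 6 libraries alone, and without prors1 (LUC) replicate 1, rls6 replicate 1 or rls6 replicate 2. Over all alternatives the adjusted p ran from 0.0187 to 0.185 at ATCG00030, 0.00859 to 0.166 at ATCG00450, 0.00585 to 0.0895 at ATCG00460 and 0.0258 to 0.243 at ATCG00610.

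In rls6, 15 of the 23 calls held in all 22 alternatives, the 3 named genes included. ATCG01290 held in 17 and was not tested in the same 5 as above, and ATCG00940 held in 21 and was not tested with the minimum of 20 reads. Leaving out rls6 replicate 1 put ATCG00010 at 0.0599, ATCG00100 at 0.0526, ATCG00610 at 0.0753 and ATCG01030 at 0.148. Without rls6 replicate 2, ATCG00610 was at 0.0795 and ATCG01030 at 0.136. Without rls6 replicate 3, ATCG00010 was at 0.0785, ATCG00260 at 0.0617, ATCG00610 at 0.0948 and ATCG01030 at 0.0646. Leaving out Col-0 (LUC) replicate 1 gave 0.0887 for ATCG00010, 0.142 for ATCG00610 and 0.1 for ATCG01030. ATCG01030 also missed the threshold without Col-0 (LUC) replicate 2 (0.089), without the third control library (0.0907) and without prors1 (LUC) replicate 1 (0.0508). Over all alternatives the adjusted p ran from 0.00357 to 0.109 at ATCG00010, 1.16e-07 to 0.0913 at ATCG00100, 1.45e-07 to 0.0627 at ATCG00110, 0.00375 to 0.0617 at ATCG00260, 0.0238 to 0.271 at ATCG00610 and 0.0209 to 0.167 at ATCG01030.

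Summed over the 37 genes, the tRNA reads came to 3811, 4486 and 4106 normalized reads in the control libraries, 7784, 6177 and 6756 in those of prors1 (LUC) and 6822, 7865 and 7294 in those of rls6. No mutant library fell into the Col-0 (LUC) range. From a control mean of 4134 ± 339, the sum went to 6906 ± 814 with prors1 (LUC), 1.67 times as high, and to 7327 ± 523 with rls6, 1.77 times as high (SD, n = 3). In the two-sided exact permutation test both differences had p = 0.1, the smallest p that 3 against 3 libraries allow, and 0.18 after adjustment over 9 tests. The sums of the mutants overlapped, and their difference had an exact permutation p of 0.4. Leaving out trnS-GCU, the ratios were 1.71 and 1.89, and leaving out ATCG00290 as well they were 1.72 and 2.10. The sum over the other chloroplast genes was 1.76 times as high in prors1 (LUC) and 2.14 times as high in rls6.

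As a share of all chloroplast-gene reads, tRNA genes took 28.7%, 32.6% and 26.9% in the control libraries, 27.5%, 30.4% and 27.5% in those of prors1 (LUC) and 24.7%, 27.3% and 24.7% in those of rls6. Col-0 (LUC) overlapped both mutants, and rls6 lay just below prors1 (LUC). The means were 29.4% ± 2.93, 28.5% ± 1.72 and 25.6% ± 1.49 (SD, n = 3), with exact permutation p-values of 0.7 for prors1 (LUC) against Col-0 (LUC), 0.2 for rls6 against Col-0 (LUC) and 0.1 for rls6 against prors1 (LUC), and 0.7, 0.3 and 0.18 after adjustment.

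Within the tRNA gene reads, trnP took 0.417%, 0.376% and 0.474% in the control libraries, 0.649%, 0.811% and 0.622% in those of prors1 (LUC) and 1.15%, 0.647% and 0.883% in those of rls6. The share was higher in all 6 mutant libraries than in any Col-0 (LUC) library, and the mutants overlapped. Its mean was 1.64 times as high in prors1 (LUC) and 2.12 times as high in rls6. Each had an exact permutation p of 0.1 and 0.18 after adjustment. For rls6 against prors1 (LUC) the exact permutation p was 0.3. A rising share was not particular to trnP. While the tRNA sum rose 1.67-fold with prors1 (LUC) and 1.77-fold with rls6, most tested loci with few reads rose more. The 20 tested loci with a mean under 100 normalized reads, trnP included, had a median rise of 1.86-fold and 2.61-fold. They include the 9 genes that passed the filter only through reads in the mutants, which favours a higher median. The untested ATCG01140 and ATCG01260, with 26 and 22 reads, had ratios to the control of 0.754 and 0.707 in prors1 (LUC). In rls6 their ratios were 1.28 and 1.15. The trnfM share, a measure added after its values were seen, averaged 2.34% ± 0.573 for Col-0 (LUC), 4.91% ± 0.289 for prors1 (LUC) and 5.38% ± 0.873 for rls6 (SD, n = 3), again with no overlap between Col-0 (LUC) and either mutant (exact permutation p = 0.1 for both). The trnS-GCU share, added in the same way, was 54.2% ± 2.53, 53.3% ± 2.18 and 51.2% ± 1.04 in the same order of genotypes, with exact permutation p-values of 0.5 for prors1 (LUC) and 0.1 for rls6 against Col-0 (LUC).

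**Figure D4:**
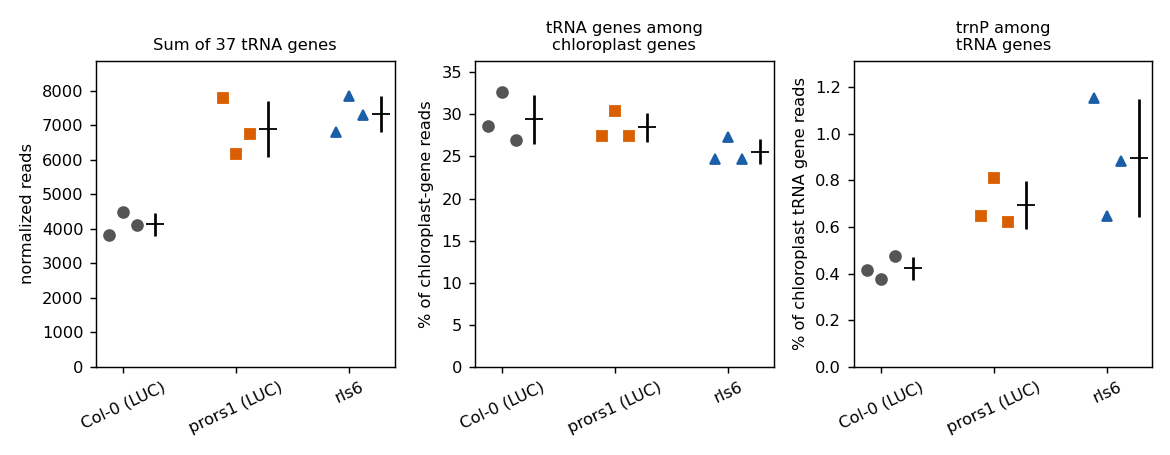
Summed normalized reads of the 37 chloroplast tRNA genes (left), their share of all chloroplast-gene reads (middle) and the share of trnP in the tRNA gene reads (right), with 1 point per library and black bars for the mean ± SD (n = 3); all axes start at 0. The sum is 3811 to 4486 in Col-0 (LUC) and 6177 to 7865 in the mutants, while the middle panel shows overlapping shares of 24.7% to 32.6%.

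Few reads were counted over nuclear tRNA genes. How reads with several mapping places were counted is not given, so these counts do not show how abundant pieces of nuclear tRNAs were. Of 625 in the table, 3 were tested, AT1G12590, AT1G33370 and AT2G07748, with adjusted p-values of 0.210 to 0.887 over the 3 comparisons. All 625 together had 465 reads over the 3 control libraries, 361 over those of prors1 (LUC) and 471 over those of rls6. Their mean sum was 136 ± 8.43 normalized reads for the control, 122 ± 17.0 for prors1 (LUC) and 149 ± 7.87 for rls6 (SD, n = 3). The 11 nuclear genes listed for organelle tRNA charging and for the RNase P that trims precursor ends had 50 reads in the control, 41 with prors1 (LUC) and 59 with rls6, and 0 of them had enough reads to be tested. Mitochondrial tRNA genes were not analysed here as a group.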

How the data were processed

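Small RNA libraries of 9 plant samples were grouped by the genotype label, with 3 of each genotype. The build was TAIR10 and the tools were Bowtie2, featureCounts, Trimmomatic and FastQC, per the submitters' processing notes; what is not given in the sources used here is their versions and settings, and how strand and reads with several mapping places were treated. The signal values deposited by the authors are counts of reads over each gene, divided by 1 size factor for each library. Whole reads were recovered from 100% of the values within 1e-06, and the limit of 3 reads that a count of 0 allows covers counting error only. The 95% intervals of log2 fold changes come from the spread between libraries. Per the file headers, the authors also deposited log2 fold changes with standard errors and adjusted p-values. Across 4766 genes, which are no independent replicates, these log2 values had a Pearson r of 0.991 with prors1 (LUC) over the control and of 0.561 with rls6 over the control.

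Here log2(normalized reads + 1) of all 9 libraries was fitted by genotype in limma 3.58.1 under R 4.3.3, using the mean-variance trend option, on genes that reached 10 normalized reads in 3 libraries, and p-values were adjusted by Benjamini-Hochberg over 4766 genes with a threshold of 0.05. The fit was tested on simulated counts with the same spread for all genes and genotypes, which the libraries here need not have. Single values per library were compared with exact permutation tests (scipy 1.17.1). edgeR 4.0.16 and DESeq2 1.42.0 on the recovered reads, other scalings, pseudocounts and filters, a replicate block and leaving out each library were alternatives. Libraries of the same genotype differed beyond counting noise (chi-square per degree of freedom 1.42 to 6.31). Values of every library are given for 19 genes: the 3 named by the rule, those with a mean of 100 normalized reads or more, and, per comparison, as many as 8 genes at either end of the log2 fold changes that passed. The members and lists were chosen with earlier results of these data known. Sequences and annotation are from RefSeq TAIR10.1.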

Additional observations from a re-analysis of the deposited data

How the results depend on the processing

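Across the alternatives, 11 to 19 chloroplast tRNA genes were higher in prors1 (LUC) than in Col-0 (LUC) and 19 to 24 in rls6, with 0 lower in each; DESeq2 gave 11 and 20 and edgeR 15 and 24. Leaving out 1 library gave 11 to 18 for prors1 (LUC), 19 to 24 for rls6 and 0 to 2 for rls6 against prors1 (LUC). That last count was 1 without the filter on low values (ATCG00100) and 1 in a fit of the 6 libraries alone (ATCG00310). Without the filter, 35 tRNA genes were tested and their median log2 fold change in rls6 was 0.94; more genes with few reads enter it. In CPM, reads scaled to the library total, the median of all genes shifted to -0.12 in prors1 (LUC) and -0.15 in rls6, and with upper-quartile scaling to -0.11 in rls6; the tRNA median stayed above it, at 0.70 and 1.07 in CPM. Over all genes, higher calls in prors1 (LUC) were 369, against 205 by DESeq2, 233 by limma without the trend and 211 in CPM; lower calls in rls6 were 236, against 104 by DESeq2.

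Same-numbered libraries were not paired by the labels, and their deviations correlated at -0.018 to 0.153, with 13 of 18 library comparisons highest for the own number, a hint from the data and not the design. With the replicate number as a block, 19 genes were higher in prors1 (LUC), 24 in rls6 and 1, ATCG00100, in rls6 against prors1 (LUC). Without Col-0 (LUC) replicate 2 the ratio of prors1 (LUC) to Col-0 (LUC) turned to 1.02 for the tRNA share of chloroplast-gene reads and to 1.01 for the trnS-GCU share, within ranges over single libraries of 0.928 to 1.02 and 0.960 to 1.01. The trnS-GCU log2 fold change of rls6 against prors1 (LUC) was -0.0391 with upper-quartile scaling, -0.01 without prors1 (LUC) replicate 2 and -0.0237 without rls6 replicate 2, the lower end of a range up to 0.106 over single libraries. The causes were not tested. Low read numbers limit the 12 genes left untested and those below about 10 reads in Col-0 (LUC). Whether sequencing depth or the counting of reads with several mapping places kept them low was not tested.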
